A study of Mus musculus with 144 samples.

Results

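The genes described here are 10 heat shock genes of mouse liver, of 51912 genes in the count table. They are a list of gene symbols: the HSP70 chaperones Hspa8, Hspa1b and Hspa1a, the HSP110 exchange factor Hsph1, the HSP40 co-chaperones Dnajb1 and Dnaja1, the HSP90 chaperone Hsp90aa1, the mitochondrial chaperonin pair Hspd1 and Hspe1, and the regulator Hsf1. Liver RNA was read by QuantSeq, which sequences 1 tag at the end of each polyadenylated transcript, so that levels in CPM (counts of a gene scaled to the library's gene total) do not depend on transcript length. The 144 libraries form 4 series of 36: total RNA, nuclear RNA and polysomal RNA of wild-type (WT) mice, and total RNA of Bmal1-/- mice, which lack the core clock activator BMAL1. Each series covers 6 zeitgeber times (ZT, counted in hours from lights on) with 6 libraries per time: ZT2, ZT6 and ZT10 fall in the light and ZT14, ZT18 and ZT22 in the dark. All mice were male C57BL/6J, kept in alternating 12 h phases of light and darkness with food and water always at hand, and the age and the way the Bmal1 allele was made are not given in the sources used here. Nuclear RNA came from nuclei spun through a sucrose cushion, and polysomal RNA from sucrose gradient fractions of lysates made with cycloheximide, which holds ribosomes on their messages. The labels do not say whether the 6 libraries of a group came from separate animals, so p-values measure the spread between these libraries.

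Heat shock proteins hold, fold and refold other proteins. Their genes are switched on by heat shock factors, above all HSF1, which HSP70 and HSP90 keep inactive until unfolded proteins draw these chaperones away. HSF1 binds arrays of inverted GAA units in promoters. Mice are active in the dark, when their body temperature is higher, and in mouse liver heat shock genes are known to follow this daily temperature wave, while the cold-inducible RNA-binding protein Cirbp runs opposite to it. Body temperature itself is not among the values analysed here.

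The libraries held between 1662449 and 14281894 gene counts. Clock genes followed the labels in WT total RNA: Dbp was lower in the dark by -1.71 ± 0.29 (log2, SE; adjusted p = 0.000144 by edgeR's quasi-likelihood test) and Arntl, the gene of BMAL1, was higher by 1.57 ± 0.23 (adjusted p = 1.27e-05). In Bmal1-/- total RNA Arntl reads did not disappear, with 11.2 ± 2.3 CPM at ZT6 (SD, n = 6) against 1.76 ± 1.4 in WT, and the altered part of the gene is not named in the labels, so this does not check the deletion. Dbp, a direct target of BMAL1, stood at 3.22 ± 1.2 CPM at ZT10 in Bmal1-/- mice against 97.6 ± 28 in WT. The summed level of 5 hepatocyte markers ranged from 27089 to 87463 CPM in WT total RNA, against 149 to 787 CPM for 6 Kupffer cell markers, and no listed marker was at 0 in all libraries of a series. Xist, which male cells do not normally express, exceeded 100 CPM in 4 libraries although all mice are labelled male: WT total ZT22 replicate 5 (408 CPM), nuclear ZT22 replicate 5 (4363 CPM), polysomal ZT22 replicate 1 (165 CPM) and Bmal1-/- total ZT22 replicate 6 (491 CPM). Gene-level tests of the heat shock genes were repeated without these 4 libraries, and calls that change are given with both values. Other named genes and the polyadenylation sites were not read without them.

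Promoter sequences were available for 7 of the 10 genes, in 12 windows that run from 250 bases before to 50 bases after an annotated start (RefSeq, GRCm38.p6). They are shown because the arrays of GAA units bound by HSF1 can be looked for in them. The patterns searched on both strands were 2 inverted units (GAANNTTC or TTCNNGAA), 3 inverted units (GAANNTTC followed directly by NNGAA, or TTCNNGAA by NNTTC, so that each holds a match of 2 units) and the E-box CACGTG bound by BMAL1 and CLOCK. Capitals mark the matches to the GAA unit patterns.
Hspe1, chr1:55087998-55088147, + strand: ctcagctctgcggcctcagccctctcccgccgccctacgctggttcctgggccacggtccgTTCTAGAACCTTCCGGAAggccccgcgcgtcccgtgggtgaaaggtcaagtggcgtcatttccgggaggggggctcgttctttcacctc
Hsph1, chr5:149636337-149636486, - strand: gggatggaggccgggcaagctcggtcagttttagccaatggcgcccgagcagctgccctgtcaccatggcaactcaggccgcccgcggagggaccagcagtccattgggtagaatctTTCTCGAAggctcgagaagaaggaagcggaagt
Hsph1, chr5:149636280-149636308, - strand: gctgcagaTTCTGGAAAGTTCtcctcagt
Hspa1b, chr17:34959239-34959388, - strand: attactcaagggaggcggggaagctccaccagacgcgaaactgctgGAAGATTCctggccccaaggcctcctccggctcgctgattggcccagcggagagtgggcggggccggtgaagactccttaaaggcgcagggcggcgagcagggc
Dnaja1, chr4:40722318-40722467, + strand: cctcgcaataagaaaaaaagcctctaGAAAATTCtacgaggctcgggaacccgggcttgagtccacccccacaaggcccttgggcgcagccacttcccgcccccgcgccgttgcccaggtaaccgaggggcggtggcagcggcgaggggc
Dnajb1, chr8:83608025-83608174, + strand: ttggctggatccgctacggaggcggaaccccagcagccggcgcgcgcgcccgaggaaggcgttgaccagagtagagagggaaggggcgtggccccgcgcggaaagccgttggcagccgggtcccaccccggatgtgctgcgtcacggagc

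Hspe1 and Hspd1 lie head to head on chromosome 1 and share 1 array of 4 alternating units, at chr1:55088059-55088076. It lies 89 to 72 bases before the Hspe1 start and, read from the other strand, 144 to 127 bases before the more downstream of the annotated Hspd1 starts, so that it falls after the other. In Hsph1 an array of 3 units lies 16 to 28 bases after one of its annotated starts. The 3-unit pattern was found in 4 of the 12 windows, of Hspd1, Hspe1 and Hsph1, and in 0.603% of the 32851 promoter windows of the table. The 2-unit pattern was found in 7 of the 12 windows, of 6 genes, against 15.1% of all windows, and CACGTG in 3 of the 12, of Hspd1 and Hsph1, against 7.15%. These windows overlap in part. The array shared by Hspd1 and Hspe1 counts in a window of each, and the Hsph1 array and CACGTG each count in both Hsph1 windows. The counts of windows are thus higher than those of separate stretches. The promoter stretches of Hspa1a and Hspa1b differ at 1 of their 150 bases. Their transcript ends, where the tags lie, were not compared. Whether tags of these near-identical copies were split or exchanged between them was not tested, so their separate values are uncertain. A match is a run of letters and not a measured binding site.

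In WT total RNA the cytosolic heat shock genes rose with the onset of darkness. Hspa8, the constitutive HSP70 of the cytosol, went from a mean of 64.6 ± 16 CPM at ZT10 to 143 ± 7.7 at ZT14 (SD, n = 6), and Hsph1 from 20.1 ± 9.5 to 70.9 ± 22. Of the 10 genes, 9 passed the filter of a mean of 10 counts per library, and Hspa1a did not. A 24 h rhythm was called for 7 of the 9 (adjusted p under 0.05 by edgeR's quasi-likelihood test), where 18.9% of 11964 genes were called. All 7 were higher in the dark than in the light, where 9.23% of genes differed and 4.77% were higher. The exceptions were Hspd1 and Hsf1. The libraries of the highest and the lowest time point did not overlap for 7 of the 9, and for 10.7% of all genes. The median fitted peak-to-trough difference was 1.19 on the log2 scale for the 9 genes and 0.32 for all genes. The 10 genes were chosen with earlier results of these data known. Their counts beside the shares of all genes, here and below, are thus descriptions and no independent support. In bulk liver, fewer cells of a type and less RNA per cell cannot be told apart.

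**Figure D1:**
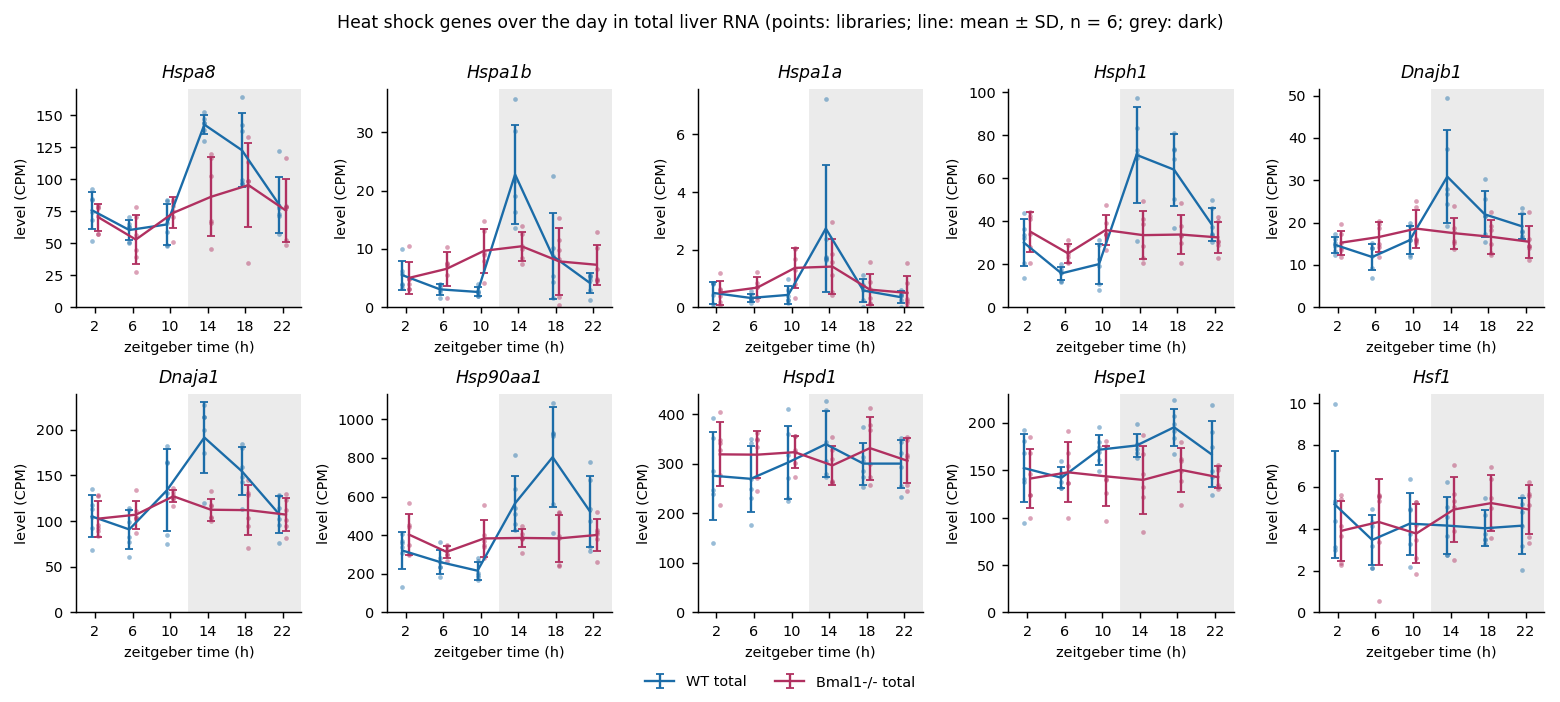
Level (CPM, linear axis from 0) of the 10 heat shock genes at 6 zeitgeber times in total liver RNA of WT and Bmal1-/- mice. Points are libraries, lines join means with SD bars (n = 6), and grey marks the dark phase. WT means of Hspa8, Hsph1, Hspa1b, Dnajb1 and Dnaja1 are highest at ZT14 and that of Hsp90aa1 at ZT18.

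Among the HSP70 genes, Hspa8 measured 50.3, 62.5 and 70.2 CPM (lowest, median and highest of 6 libraries) at ZT6 and 130, 144 and 153 CPM at ZT14. The groups did not overlap. Its fitted peak-to-trough ratio was 2.29 with a peak 17.0 h after lights on (adjusted p = 2.52e-06), and its mean in the dark exceeded that in the light by 0.78 ± 0.09 (log2, SE; adjusted p = 3.19e-07). Hspa1b, a stress-inducible HSP70, rose in a pulse, with 1.85, 2.56 and 4.01 CPM at ZT10 and 13.6, 20.4 and 35.7 at ZT14. At ZT18 its libraries were spread from 1.51 to 22.5 CPM with a median of 7.10. The lowest of these lay below every ZT10 library and the highest within the range of ZT14. The fitted ratio of Hspa1b was 4.91 (adjusted p = 0.00107) and its dark minus light difference 1.44 ± 0.24 (adjusted p = 0.000117). The ratio of its highest to its lowest time-point mean was 8.69, against 2.37 for Hspa8.

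Hspa1a, the near-identical neighbour of Hspa1b, followed the same course at a much lower level. It measured 1.65, 1.74 and 7.23 CPM at ZT14, and 1.11 CPM or less in each of the 30 WT total libraries of the other times. The ZT14 libraries held 11 to 55 counts of it. With the filter lowered to a mean of 1 count its rhythm was called in WT total RNA (ratio 5.67, adjusted p = 0.00218), where 12.8% of genes were called under that filter, and its dark minus light difference of 0.99 ± 0.36 was not (adjusted p = 0.0945; 5.88% of genes). In nuclei both its rhythm (ratio 5.51, adjusted p = 0.0412; 4.01% of genes) and its difference (1.65 ± 0.46, adjusted p = 0.043; 1.67%) were called. In polysomes, where 18 of 36 libraries held no read of it, neither its rhythm (ratio 7.95, adjusted p = 0.104; 5.16%) nor its difference (1.73 ± 0.74, adjusted p = 0.233; 2.35%) was. In Bmal1-/- total RNA neither was called (rhythm ratio 3.15, unadjusted p = 0.00682; 0.0583% and 0% of genes).

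Hsph1, which recharges HSP70 with ATP and slows aggregation, measured 12.0, 16.2 and 20.3 CPM at ZT6 and 30.9, 72.3 and 97.3 CPM at ZT14. The groups did not overlap, although replicate 4 at ZT14 stood well below its group. The ratio was 4.44, with a peak at 17.7 h (adjusted p = 1.05e-06), and the dark minus light difference was 1.44 ± 0.16 (adjusted p = 1.07e-07).

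The J-domain co-chaperones that hand clients to HSP70 rose as well. Dnajb1, the classic inducible HSP40, measured 7.01, 13 and 15.1 CPM at ZT6 and 19.1, 27.3 and 49.5 at ZT14 (ratio 2.29, peak at 16.6 h, adjusted p = 1.05e-05). Dnaja1 measured 61.1, 90.7 and 114 CPM at ZT6 and 120, 207 and 227 at ZT14 (ratio 1.98, peak at 15.4 h, adjusted p = 4.92e-05). Neither gene's 2 groups overlapped. Dnaja1 was already split at ZT10, with libraries from 75.1 to 183 CPM. The dark minus light differences were 0.77 ± 0.11 for Dnajb1 (adjusted p = 1.04e-05) and 0.48 ± 0.11 for Dnaja1 (adjusted p = 0.00335).

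Hsp90aa1, the inducible cytosolic HSP90, had the highest level of the 10 genes at night, and the latest fitted peak of the 7 with a called rhythm. Its libraries held 170, 199 and 283 CPM at ZT10, 428, 525 and 817 at ZT14, and 413, 917 and 1084 at ZT18. Every ZT14 and ZT18 library lay above every ZT10 library. The ratio was 3.60 with a peak at 18.6 h (adjusted p = 2.43e-07) and the dark minus light difference was 1.27 ± 0.14 (adjusted p = 1.18e-07).

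The mitochondrial pair had smaller ratios. Hspe1, the lid of the chaperonin, measured 131, 141 and 160 CPM at ZT6 and 168, 195 and 224 at ZT18. These 2 groups did not overlap, and the ratio of 1.36 passed the test (adjusted p = 0.0083). Its dark minus light difference of 0.24 ± 0.08 passed (adjusted p = 0.0346) but was 0.22 ± 0.07 with an adjusted p of 0.0616 without the library with Xist, and the call was also lost without any of replicates 1, 2, 4, 5 or 6. Hspd1, the barrel of the same chaperonin, measured 177, 259 and 350 CPM at ZT6 and 273, 324 and 427 at ZT14, which overlap. Its dark minus light difference was 0.19 (95% interval -0.02 to 0.39, adjusted p = 0.28). Fitted with the replicate number as a block, this difference and the rhythm of Hspd1 were called, though the labels do not say what a number means. Hspd1 and Hspe1 share the array of GAA units shown above, and the difference between their daily courses was not tested.

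Hsf1, the regulator, was among the lowest of the 10 genes. Its time-point means in WT total RNA lay between 3.46 and 5.16 CPM, with overlapping libraries at all of them. The dark minus light difference was -0.02 (95% interval -0.37 to 0.33, adjusted p = 0.97). It averaged 31.9 counts per library, and changes of a size within that interval remain possible.

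Over the 36 WT total libraries, the log2 levels of Hspa8 and Hsph1 had a Pearson r of 0.89 and those of Hsph1 and Hsp90aa1 of 0.86, while Hsf1 had an r between -0.48 and 0.23 with the other tested genes. These are descriptions, since libraries of a time point share their hour. Among 7965 genes averaging 50 counts or more, the genes whose levels were most like Hsph1 were Chordc1 (r = 0.95), a co-chaperone of HSP90, Bag3 (0.89), a nucleotide exchange factor of HSP70, Hspa5 (0.88), the HSP70 of the endoplasmic reticulum, Ywhag (0.85) and Hspa4l (0.85), an HSP110. Those most like Hspa8 were Bag3 (0.86), Chordc1 (0.84), Hspa5 (0.84), Tsr1 (0.81) and Srm (0.81).

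Other chaperone genes, listed by compartment, were read beside these 10. Their lists too were chosen with earlier results of these data known, so their counts are descriptions. Of 34 tested cytosolic chaperones and co-chaperones, 12 rose in the dark in WT total RNA and 0 fell (4.77% of all genes rose), with a median difference of 0.23 against 0.00 for all genes. The largest rises were those of Stip1, which bridges HSP70 and HSP90 (0.87 ± 0.20, adjusted p = 0.00319), the small heat shock protein Hspb1 (0.86 ± 0.24, adjusted p = 0.0202) and Bag3 (0.77 ± 0.12, adjusted p = 2.32e-05). The smallest that passed were Cacybp (0.43 ± 0.08), Dnajb4 (0.36 ± 0.09) and the HSP90 co-chaperone Ptges3 (0.23 ± 0.07). Of 12 chaperones of the endoplasmic reticulum 6 rose and 0 fell: Hspa5 by 0.71 ± 0.10, Hyou1 by 0.69 ± 0.13, Dnajb11 by 0.37 ± 0.09, Hsp90b1 by 0.35 ± 0.10, Pdia3 by 0.34 ± 0.08 and Dnajc3 by 0.30 ± 0.09. Of the 8 subunits of the cytosolic chaperonin TRiC, Cct5 (0.27 ± 0.06) and Tcp1 (0.20 ± 0.06) rose.

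None of 10 mitochondrial chaperones and proteases differed between dark and light, and their median was -0.01. This contrast can miss a course that peaks near lights on, and Clpx, among these 10, had a called rhythm with such a peak. The cold-inducible gene Cirbp went the other way, with 15.5 ± 4.0 CPM at ZT6 and 6.42 ± 2.1 at ZT18 (SD, n = 6; dark minus light -0.87 ± 0.13, adjusted p = 1.07e-05, fitted peak at 5.89 h). Rbm3, another cold-inducible gene, had a difference of 0.07 and did not pass. Among markers of liver cell types, 0 of 6 of Kupffer cells, 0 of 5 of sinusoidal endothelium, 0 of 5 of stellate cells and 1 of 5 of hepatocytes (Hnf4a, 0.24 ± 0.08) differed between dark and light. The summed Kupffer cell markers ran from 182 to 787 CPM in the light and from 149 to 663 in the dark. Other cell types were read as sums in WT total RNA. Median sums in the light and the dark were 15.2 and 22.5 CPM for bile duct cells and 4.40 and 1.97 for neutrophils. For lymphocytes they were 9.99 and 8.17, and for red blood cells 1209 and 1214. Their part in the daily courses was not tested.

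**Figure D2:**
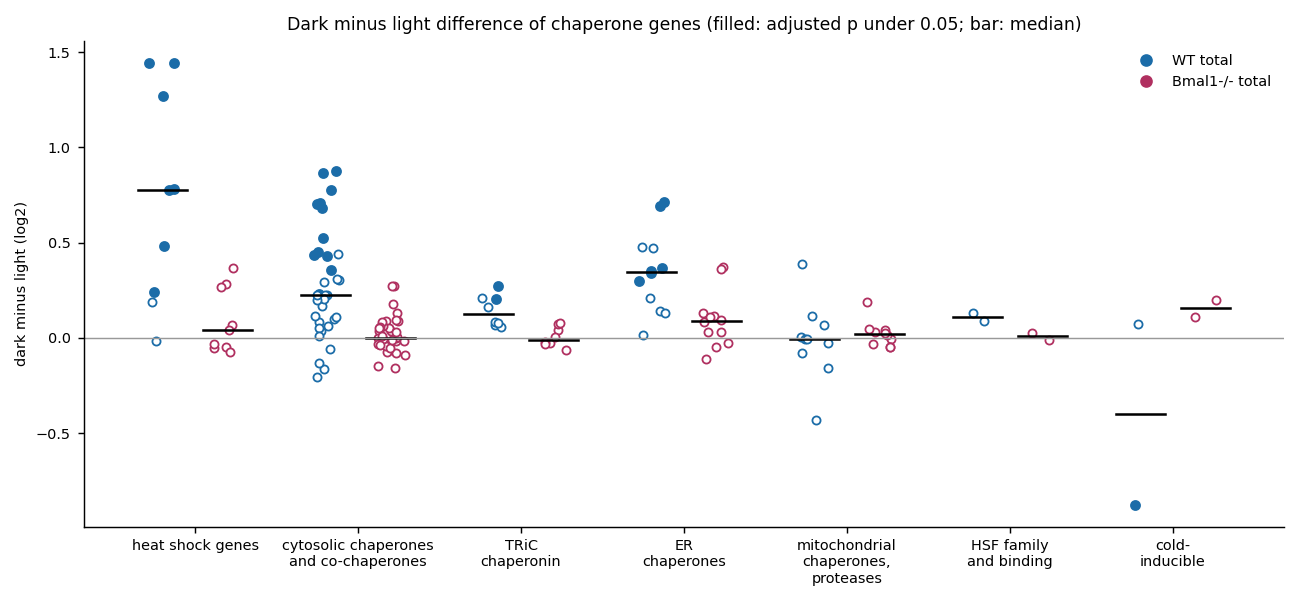
Dark minus light difference (log2, TMM-normalized counts) of each tested gene, by group of chaperones, in WT total RNA and Bmal1-/- total RNA. Filled points passed an adjusted p of 0.05, open points did not, and bars are medians. The cytosolic median is 0.23 in WT and 0.00 in Bmal1-/- mice, and the only filled point below 0 is Cirbp in WT.

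In Bmal1-/- total RNA none of the 9 tested genes had a called rhythm (0.00825% of 12126 genes did, and 491 had an unadjusted p under 0.05), and none differed between dark and light (0% of genes, 452 at an unadjusted p under 0.05). DESeq2 called 0 of the 9 in either test as well. The highest and lowest time points overlapped for all 9, where 1.4% of genes had no overlap. Hsph1 measured 20.5, 24.2 and 31.3 CPM at ZT6 and 20.6, 33.6 and 49.5 at ZT14, which overlap. Hsp90aa1 means stayed between 313 and 403 CPM over the day, between the WT trough of 216 and the WT peak of 804. Dnajb1 means lay between 15.3 and 18.6 CPM and Dnaja1 means between 103 and 127.

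The loss of the daily difference itself passed a test for 4 of the 9 genes, where 1.09% of 12082 genes had a lower dark minus light difference in Bmal1-/- mice. The difference between genotypes was -1.39 ± 0.20 for Hsph1 (log2, SE; adjusted p = 4.95e-06), -1.20 ± 0.18 for Hsp90aa1 (6.21e-06), -0.82 ± 0.16 for Dnajb1 (0.000664) and -0.52 ± 0.14 for Dnaja1 (0.0262). The same 4 passed the test of a different rhythm (5.11% of genes). The dark minus light call of Dnaja1 was lost when any of replicates 2, 3, 5 or 6 was left out, and its rhythm call without replicate 3. Without the libraries with Xist, 4 genes passed both tests. The summed hepatocyte markers had medians of 67687 CPM in the light and 65536 in the dark in WT total RNA. In Bmal1-/- total RNA these were 63160 (30448 to 109329) and 46344 (23655 to 77751). Kupffer cell sums had medians of 283 and 289 CPM in WT and 234 and 251 in Bmal1-/- total RNA. The part of cell types in the difference between genotypes was not tested.

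For Hspa8 and the Hspa1 pair a difference between the genotypes was not called by edgeR. Hspa8 means in Bmal1-/- mice ran from 52.8 ± 19 CPM at ZT6 to 95.3 ± 33 at ZT18, and its dark minus light difference was 0.37 (95% interval 0.07 to 0.66, unadjusted p = 0.0165, not called over all genes). The genotypes differed by -0.41 (95% interval -0.75 to -0.06), which did not pass (adjusted p = 0.242). Hspa1b was lowest at ZT2 (5.03 ± 2.8 CPM) and highest at ZT14 (10.5 ± 2.4) in Bmal1-/- mice. Its WT trough of 2.62 and peak of 22.8 CPM lay outside that range, and the genotypes differed by -1.17 (95% interval -1.90 to -0.43, adjusted p = 0.0724 by edgeR). DESeq2 called that difference (-1.17 ± 0.35, adjusted p = 0.0351). Hspa1a had its highest Bmal1-/- mean at ZT14 too (1.41 ± 0.95 CPM), with libraries from 0.412 to 2.97. Differences of Hspe1 (-0.27), Hspd1 (-0.25) and Hsf1 (0.31) between genotypes did not pass.

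Averaged over the day, Hspa8, Dnajb1, Dnaja1 and Hspe1 were lower in Bmal1-/- than in WT total RNA, and no gene of the 10 was called higher, where 22.4% of genes were lower and 44.2% differed. The differences were -0.32 ± 0.09 for Hspa8, -0.23 ± 0.08 for Dnajb1, -0.28 ± 0.07 for Dnaja1 and -0.31 ± 0.06 for Hspe1 (adjusted p between 1.38e-05 and 0.0142), and the call of Dnajb1 was lost without replicate 2 or 6. Hsp90aa1 (-0.20, adjusted p = 0.0633), Hsph1 (-0.18), Hspa1b (0.30), Hspd1 (-0.01) and Hsf1 (0.01) did not pass. Other markers differed between the genotypes as well: 5 of 6 Kupffer cell markers were lower (summed level 103 to 486 CPM against 149 to 787 in WT) and Sox9, a bile duct marker, was higher by 1.44 ± 0.10. The summed hepatocyte markers had a median of 66475.5 CPM in WT and 51292.5 in Bmal1-/- total RNA. Such medians were 266 and 328 CPM for stellate cells, 19.0 and 58.2 for bile duct cells and 187 and 188 for sinusoidal endothelium. The part of these cell types in the level differences was not tested.

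The same comparison was made for the other chaperones. Of the 34 cytosolic chaperones 8 had a lower dark minus light difference in Bmal1-/- mice, among them Stip1 (-0.82 ± 0.21), Bag3 (-0.79 ± 0.17), Chordc1 (-0.77 ± 0.14) and Hspa4l (-0.75 ± 0.16), and 0 had a higher one, where 1.09% of all genes had a lower one. Of the 12 chaperones of the endoplasmic reticulum only Hspa5 did (-0.67 ± 0.16, adjusted p = 0.0111), and of the 8 TRiC subunits and 10 mitochondrial genes none. Cirbp, which fell in the dark in WT, had a difference of 0.20 ± 0.21 in Bmal1-/- mice, and the genotypes differed by 1.08 ± 0.25 (adjusted p = 0.00715). Its Bmal1-/- libraries at ZT18 were widely spread, and this call was not refitted with libraries left out.

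**Figure D3:**
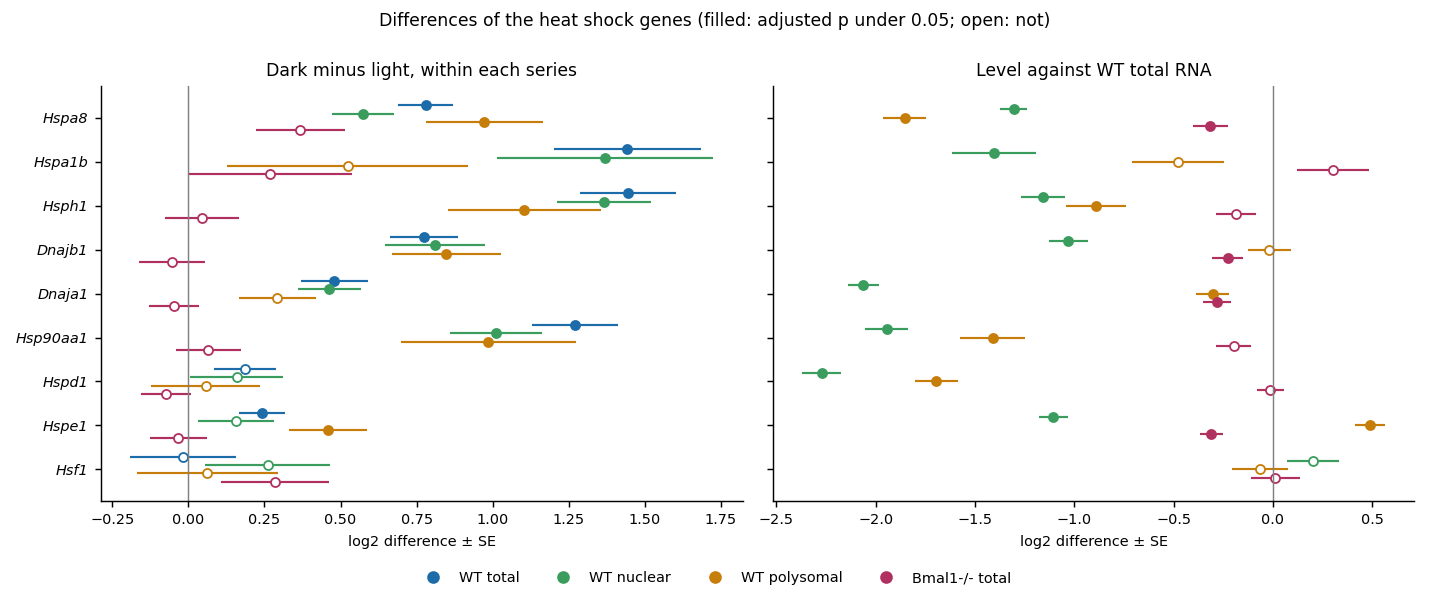
Left, dark minus light difference (log2 ± SE) of the 9 tested heat shock genes in each of the 4 series; right, level over the day in nuclear, polysomal and Bmal1-/- RNA minus that in WT total RNA (log2 ± SE). Filled points passed an adjusted p of 0.05 and open points did not. Bmal1-/- points are open for all 9 genes on the left, and 8 of the 9 nuclear points on the right are filled and below 0.

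Nuclear RNA holds new transcripts before export. There 6 of the 9 genes had a called rhythm (5.99% of 11172 genes) and the same 6 were higher in the dark (2.59% of genes differed and 1.46% were higher): Hsph1, Hspa1b, Hsp90aa1, Dnajb1, Dnaja1 and Hspa8. Hsph1 measured 4.14, 7.22 and 13.2 CPM at ZT6 and 17, 29.6 and 48.5 at ZT18 in nuclei. The groups did not overlap, and the ratio was 4.08 with a peak at 18.1 h (adjusted p = 6.27e-07). Hspa1b measured 0.435, 1.34 and 1.93 CPM at ZT10 and 3.78, 8.02 and 10.2 at ZT14, again with no overlap (ratio 5.62, adjusted p = 0.00329). It passed the filter only through ZT14, with 12.25 counts per library over all times and 8.6 without ZT14, so its call is no support for the count above, and 5 of the other 8 genes were called. With the filter at a mean of 1 count, which it passed without ZT14 too, its ratio was 5.64 (adjusted p = 0.00456). For 5 of the 9 genes the highest and lowest nuclear time points did not overlap (4.67% of genes). Hspa1b is among these 5 and, having passed the filter only through ZT14, is no support for this count either. Hspa1a was seen at 1.45 to 3.47 CPM in all ZT14 nuclear libraries and at 1.49 CPM or less elsewhere.

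The nuclear courses peaked at hours close to those of total RNA. The fitted peaks of the 6 genes lay between 15.6 and 18.7 h in nuclei and between 15.4 and 18.6 h in total RNA. Neither test of a difference between the 2 series passed for any of the 9 genes (0% of 11864 genes; 244 genes for rhythm and 324 for dark minus light had an unadjusted p under 0.05, and DESeq2 called 0 and 1). The difference in dark minus light was -0.08 for Hsph1 (95% interval -0.52 to 0.37), -0.21 for Hspa8 (-0.47 to 0.06), -0.26 for Hsp90aa1 (-0.68 to 0.15) and 0.03 for Dnajb1 (-0.35 to 0.41). These intervals leave room for sizeable differences. The calls of Dnaja1 and Hspa1b in the dark minus light test were lost without replicate 5, and that of Hspa1b also without replicate 4. In nuclear RNA Neat1, a nuclear-retained RNA, rose in the dark too (1.06 ± 0.22, adjusted p = 0.002), the summed level of Neat1 and Malat1 running from 689 to 4676 CPM in the light and from 934 to 7760 in the dark. Its part in the nuclear results was not tested.

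**Figure D4:**
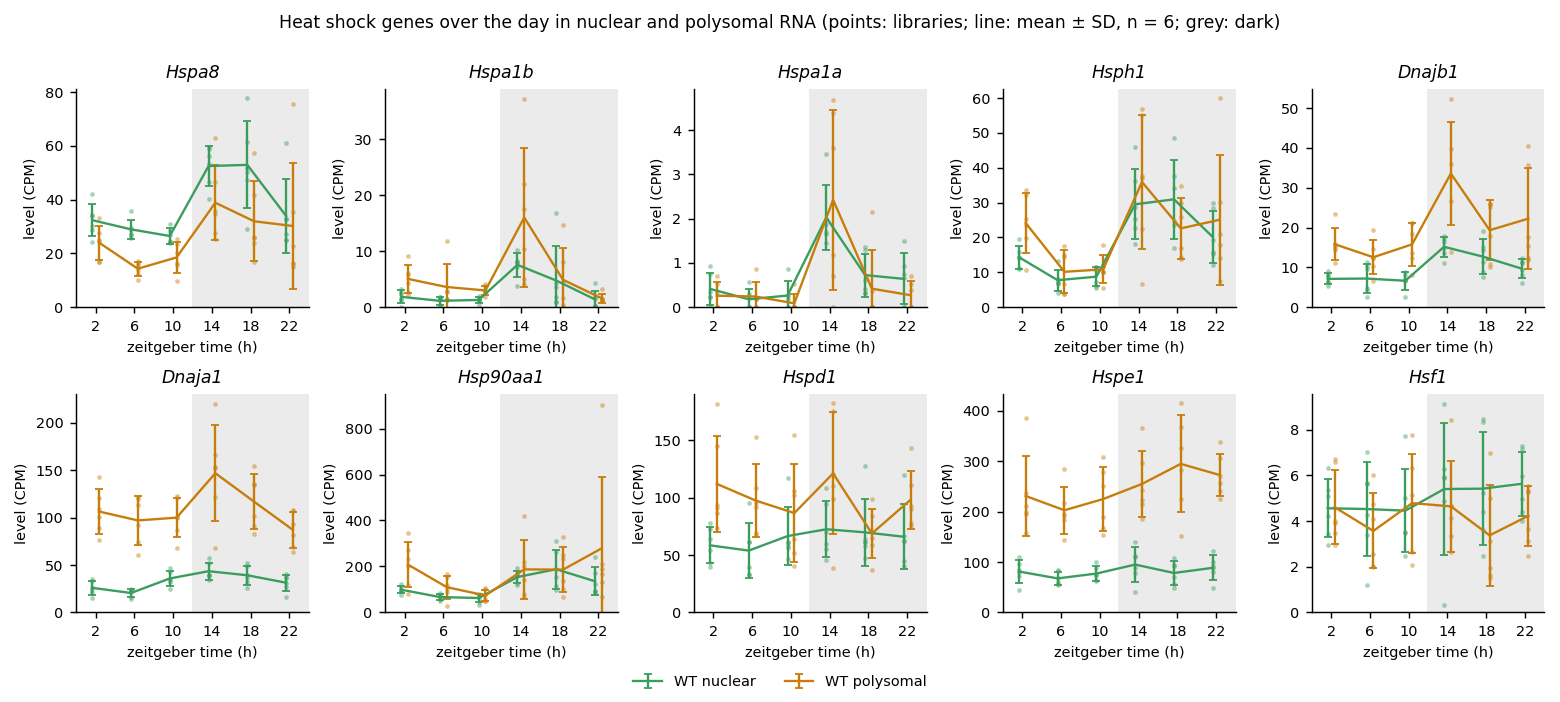
Level (CPM, linear axis from 0) of the 10 heat shock genes at 6 zeitgeber times in nuclear and polysomal RNA of WT liver. Points are libraries, lines join means with SD bars (n = 6), and grey marks the dark phase. The polysomal Hsp90aa1 point at 904 CPM at ZT22 is replicate 1, which also had Xist.

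Polysomal RNA is the RNA that sediments with several ribosomes. There 6 of the 9 genes had a called rhythm (7.9% of 10691 genes) and 5 were higher in the dark (4.09% of genes differed and 2.31% were higher): Hspa8, Dnajb1, Hsph1, Hsp90aa1 and Hspe1. Hspa8 measured 10.2, 14.8 and 17.1 CPM at ZT6 and 25.4, 35.2 and 63.1 at ZT14, with no overlap, and its dark minus light difference was 0.97 ± 0.19 (adjusted p = 0.00184). Dnajb1 measured 6.56, 12.3 and 19.3 CPM at ZT6 and 14, 34.3 and 52.4 at ZT14, with overlap (0.85 ± 0.18, adjusted p = 0.00383). Hsph1 measured 3.69, 10.4 and 17.6 CPM at ZT6 and 6.59, 37.4 and 56.8 at ZT14, where the lowest library lay among those of ZT6 (1.10 ± 0.25, adjusted p = 0.00908). Hspe1 rose by 0.46 ± 0.13 (adjusted p = 0.0327). The highest and lowest polysomal time points did not overlap for 2 of the 9 genes (7% of genes).

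Several polysomal calls lay near the threshold. Hsp90aa1 measured 69.3 to 327 CPM at ZT18 and 69.3 to 904 at ZT22, and the 904 came from replicate 1, a library with Xist. Its dark minus light difference of 0.99 ± 0.29 (adjusted p = 0.0448) was 0.71 ± 0.24 without that library (adjusted p = 0.0892), and its rhythm ratio of 3.37 (adjusted p = 0.0171) was then 2.50 (adjusted p = 0.0726). The dark minus light call of Hsp90aa1 was lost when any single replicate was left out, that of Hspe1 without any of replicates 2 to 6, and that of Hsph1 without replicate 1. Among the rhythm calls, Hspa8 was called whichever single replicate was left out. Dnaja1 lost its rhythm call without replicate 1, 2, 4, 5 or 6, Hsph1 without 1, 3 or 4, Hsp90aa1 without 1 or 3, Hspe1 without 5 or 6 and Dnajb1 without 5. Hspa1b, at 4.14 to 37.1 CPM at ZT14 and 1.07 to 3.17 at ZT22, did not pass (rhythm ratio 3.44, adjusted p = 0.108). No gene of the 9 passed a test of a difference from total RNA (0% of 11556 genes; 681 genes for rhythm and 678 for dark minus light had an unadjusted p under 0.05, and DESeq2 called 15 and 0, none of them among the 9). The largest was that of Hspa1b, -0.90 (95% interval -1.81 to 0.02, adjusted p = 0.854).

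Of the other chaperones, those called in these fractions were named after their values were seen. In nuclei, where 1.46% of all genes rose in the dark, 5 of 31 cytosolic chaperones did (Hspa4l, Chordc1, Bag3, Stip1 and Hsp90ab1, by 0.43 to 0.72) and 3 of 12 of the endoplasmic reticulum (Hyou1, Hspa5 and Hsp90b1, by 0.59 to 0.85). In polysomes, where 2.31% of all genes rose, 4 of 33 cytosolic chaperones did (Dnajb2, Chordc1, Cacybp and Dnajb6, by 0.46 to 0.56) and none of the 12 of the endoplasmic reticulum. Cirbp fell in both fractions, by -0.92 ± 0.19 in nuclei and -0.78 ± 0.13 in polysomes.

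Levels over the whole day set the 3 WT fractions apart. Relative to total RNA, 8 of the 9 genes were lower in nuclei, where 42.1% of genes were lower and 83.8% differed. The differences ran from -2.27 ± 0.10 for Hspd1, -2.06 ± 0.08 for Dnaja1 and -1.95 ± 0.11 for Hsp90aa1 to -1.03 ± 0.10 for Dnajb1. Hsf1 was the exception at 0.20 (95% interval -0.06 to 0.47, adjusted p = 0.15). Hspd1 measured 33.0, 61.0 and 128 CPM (lowest, median and highest of 36 libraries) in nuclei and 141, 289 and 427 in total RNA. The 2 series did not overlap.

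In polysomal RNA 5 of the 9 genes were lower than in total RNA (37.6% of genes) and 1 was higher (38.4%), where 76.1% of genes differed. Hspa8 was lower by -1.85 ± 0.11, Hspd1 by -1.70 ± 0.11, Hsp90aa1 by -1.41 ± 0.16, Hsph1 by -0.89 ± 0.15 and Dnaja1 by -0.30 ± 0.08. Hspe1 was higher by 0.49 ± 0.08, with 144, 231 and 415 CPM in polysomes and 94.6, 169 and 224 in total RNA. Its partner Hspd1 measured 36.6, 92.1 and 183 CPM there against 141, 289 and 427. Dnajb1 (-0.02, 95% interval -0.23 to 0.20) and Hsf1 (-0.07, -0.35 to 0.22) did not pass, and Hspa1b (-0.48 ± 0.23, adjusted p = 0.0549) passed in 7 of 13 alternative fits. The share of all genes called higher or lower in polysomes moved with the scaling: 4440 were higher and 4349 lower with TMM factors, 3975 and 4779 with RLE factors, and 4669 and 6898 when genes down to a mean of 1 count were included. That last filter shifted the median of all genes from 0.01 to -0.18. The 6 calls above kept their direction under all of these.

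Cell markers and nuclear RNA moved with the fractions too. The summed hepatocyte markers had a median of 66476 CPM in total, 37752 in nuclear and 33194 in polysomal RNA, and the sum of Malat1 and Neat1 had a median of 1964, 2726 and 58.7 CPM. Their part in the level differences was not tested. A processed copy, Hspe1-ps2, was listed at 16.7 CPM in total, 0.749 in nuclear and 15.1 in polysomal RNA, and Hspd1-ps3 at 4.40, 1.07 and 1.68, so that some tags of Hspe1 and Hspd1 may have been counted on these rows or the reverse.

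The study's own question concerned polyadenylation sites, and 9 of the 10 genes had at least 1 site in the authors' filtered list. Positions are those of the authors' site list and strands follow the genes. Over the day no site of these genes was called for a change in share in WT total RNA (0 of 18 tested, 3 of them at an unadjusted p under 0.05, in Hspe1 and Hspd1; 0.352% of 13084 sites were called by edgeR). A missing call does not show that the sites of a gene share the same daily course.

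**Figure D5:**
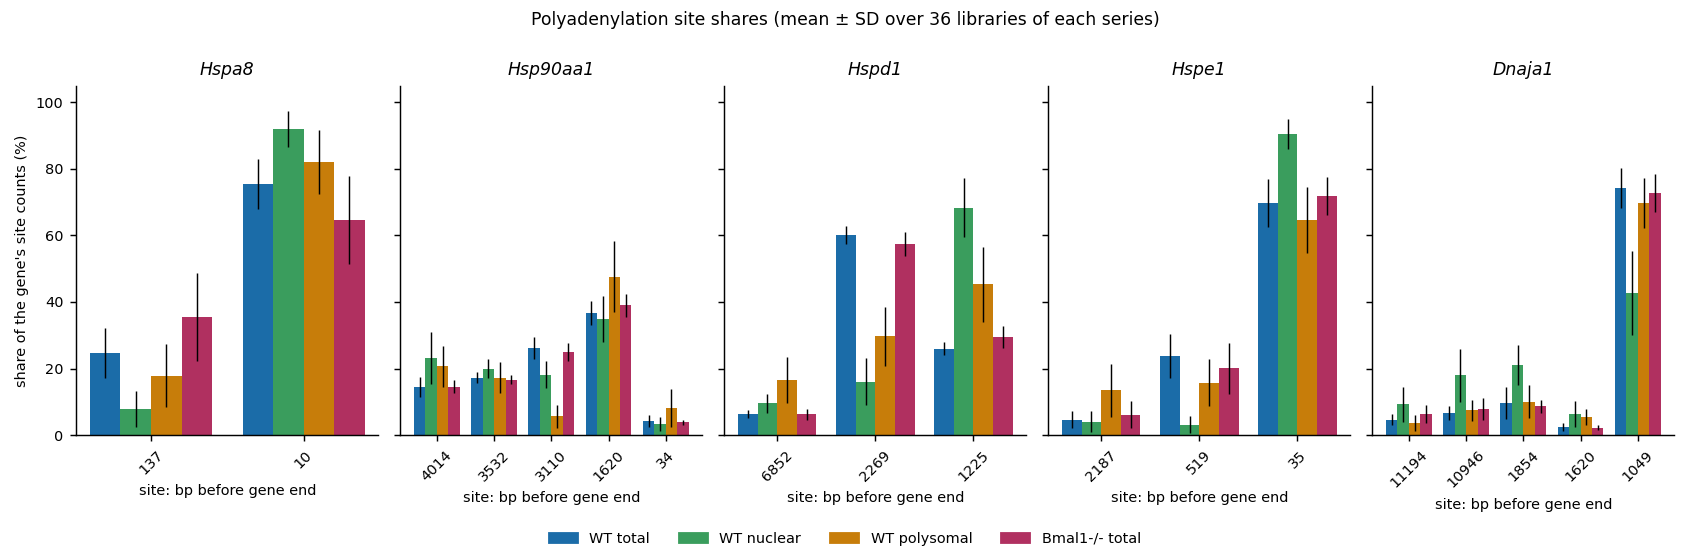
Share of each gene's site counts (percent, bars from 0, mean and SD over 36 libraries per series) for sites with at least 5% in some series, labelled by their distance in bp from the annotated gene end. Hspd1 uses the site 1225 bp before the end in 68.3% of nuclear counts and 25.9% of WT total counts.

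Between fractions the shares differed, as they did for most genes. Of the tested sites of these genes, 15 of 17 differed in share between nuclear and total RNA (78.6% of 11833 sites) and 12 of 15 between polysomal and total RNA (70.5% of 12533). In Hspd1 the site at chr1:55079058-55079230, nearest to the gene end of those used much, held 25.9% ± 1.9 of counts in total RNA, 68.3% ± 8.8 in nuclei and 45.3% ± 11 in polysomes (SD, n = 36). The next site upstream, chr1:55080102-55080347, held 60.1% ± 2.8, 16.1% ± 7.2 and 29.7% ± 8.8. The libraries of total RNA and nuclei did not overlap in either share, since the first ran from 21.6% to 28.7% in total RNA and was 50% or more in every nuclear library.

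In Hspe1 the downstream site also held more in nuclei. This last main site, chr1:55091068-55091282, held 69.9% ± 7.2 in total RNA and 90.5% ± 4.5 in nuclei (log2 difference in usage 0.38 ± 0.03), and chr1:55090726-55090798 held 23.8% ± 6.5 and 3.15% ± 2.5. In Dnaja1 the order was the opposite: chr4:40733712-40733916, the most downstream of its sites, held 74.2% ± 6.0 in total RNA and 42.6% ± 13 in nuclei. A site far upstream in that gene, chr4:40723974-40724019, held 6.56% ± 2.1 and 17.9% ± 8.1. In Hsp90aa1, chr12:110694146-110694346 held 26.3% ± 3.4 in total RNA, 18.1% ± 4.1 in nuclei and 5.66% ± 3.5 in polysomes (log2 -2.25 ± 0.11 for polysomes against total, adjusted p = 8.03e-27). Whether tags at upstream positions mark true ends or priming within a transcript was not tested.

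Bmal1-/- mice differed from WT in 5 of the 19 tested sites (9.03% of sites were called). In Hspa8 the upstream of its 2 sites, chr9:40804929-40805065, held 35.5% ± 13 of counts in Bmal1-/- and 24.6% ± 7.5 in WT total RNA (log2 0.50 ± 0.11, adjusted p = 0.00137). The site near the gene end, chr9:40805129-40805192, held 64.5% ± 13 and 75.4% ± 7.5. The ranges overlapped widely, from 15.6% to 66.3% and from 5.96% to 41.4% for the upstream site. In Hspd1 the 2 main sites moved by 0.18 ± 0.03 and -0.07 ± 0.02. The fifth was a minor Dnaja1 site, chr4:40723740-40723771, whose call (adjusted p = 0.0496) was lost when any of replicates 1, 3, 4 or 6 was left out, and that of the second Hspd1 site without replicate 1 or 4. Without replicate 1 or 4, 3 of these 5 sites passed.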

How the data were processed

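The authors deposited raw read counts per gene and per polyadenylation site for 144 liver libraries, with a filtered site list. The submitters' processing notes name STAR 2.4.2a, edgeR, HOMER and the builds mm10 and GRCm38.p5, with no role for each. The library kit was QuantSeq, per the labels' protocols. No per-sample column was left unused.

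The 10 genes and all gene lists were chosen with earlier results of these data known. Counts were tested with edgeR 4.0.16 in R 4.3.3 (quasi-likelihood F tests, robust, TMM factors) on genes averaging 10 counts or more, with Benjamini-Hochberg adjustment over all genes tested and a threshold of 0.05. Rhythm was the joint test of a cosine and a sine of 24 h. Dark minus light compared the mean of ZT14, ZT18 and ZT22 with that of ZT2, ZT6 and ZT10, and level the mean over the 6 times. Differences between series were interaction terms. CPM used the full gene total. Library totals ran from 5316601 to 9831142 in WT total, 1662449 to 6620128 in nuclear, 2578048 to 13068044 in polysomal and 4379549 to 14281894 in Bmal1-/- RNA.

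Of 29199 filtered sites, 26466 were assigned to 1 gene and used. Site usage was tested with edgeR with the gene's site total as offset, for sites with at least 5% of a gene averaging 50 site counts or more. The rhythm and dark minus light tests were tried on simulated counts of WT total RNA. The level test and the dark minus light difference between genotypes were tried on simulated Bmal1-/- and WT total counts. Site usage was tried on invented counts that took only the sample labels of these series. The gene trials gave every gene the same spread and no effect of replicate number, so they do not show how the tests behave under the real spread. The test of a different rhythm, rhythmic site usage, and the nuclear and polysomal series were not simulated. No 2 libraries of a group agreed within sampling noise (360 pairs, lowest chi-square per degree of freedom 4.03).

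Named genes were the 10, the 5 genes most correlated with Hspa8 and with Hsph1, and, per chaperone list, the 3 largest and 3 smallest called dark minus light differences in WT total RNA. Alternatives were RLE factors, DESeq2 1.42.0, a filter at a mean of 1 count, site filters, a test of any time difference, a replicate block, replicates 1 to 3 and 4 to 6 apart, leaving out each replicate and, added after seeing the data, leaving out the libraries with Xist.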

Additional observations from a re-analysis of the deposited data

Results flagged for a closer look

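Among 240 groups of 6 libraries (10 genes in 24 groups), 22 held a library that stood apart from the other 5 by Dixon's criterion on log2 (CPM + 0.5); chance alone flags about 1 in 20 groups. High libraries were, for Hspa8, nuclear ZT22 replicate 5 (61.2 CPM), which also had Xist. For Hspa1b they were polysomal ZT6 replicate 3 (11.9 CPM), polysomal ZT22 replicate 3 (3.17 CPM) and Bmal1-/- ZT2 replicate 2 (10.5 CPM). For Hspa1a they were WT total ZT14 replicate 6 (7.23 CPM), nuclear ZT14 replicate 1 (3.47 CPM) and polysomal ZT6 replicate 6 (0.857 CPM), ZT10 replicate 5 (0.527 CPM) and ZT18 replicate 2 (2.16 CPM). For Hspd1 they were replicate 4 of nuclear ZT10 (117 CPM) and of nuclear ZT18 (128 CPM).

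Low libraries were, for Hspa8, Bmal1-/- ZT10 replicate 3 (51.2 CPM) and ZT18 replicate 5 (34.5 CPM). For Hsph1 it was WT total ZT14 replicate 4 (30.9 CPM), and for Hspa1b nuclear ZT10 replicate 1 (0.435 CPM), nuclear ZT14 replicate 1 (3.78 CPM) and Bmal1-/- ZT6 replicate 1 (1.58 CPM). For Dnajb1 it was nuclear ZT10 replicate 4 (2.53 CPM), and for Hsp90aa1 WT total ZT2 replicate 4 (134 CPM) and polysomal ZT6 replicate 3 (29.3 CPM). For Hsf1 they were nuclear ZT14 replicate 6 (0.331 CPM) and Bmal1-/- ZT6 replicate 1 (0.525 CPM).

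Nuclear ZT14 replicate 1 was thus low for Hspa1b and high for its near-identical copy Hspa1a.

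The daily courses of 4 genes differed between Bmal1-/- and WT total RNA by the interaction test. The peak-to-trough ratio of the difference was 3.98 for Hsph1, 3.23 for Hsp90aa1, 2.28 for Dnajb1 and 1.87 for Dnaja1. The dark minus light difference was lower in Bmal1-/- mice, at -1.39 for Hsph1, -1.20 for Hsp90aa1, -0.82 for Dnajb1 and -0.52 for Dnaja1.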

How the results depend on the processing

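Counts of the 10 genes or their sites past the threshold stayed within 1.5 times the reported count in 250 of 269 alternative fits. The exceptions came from fewer libraries or more genes tested. With replicates 1 to 3 only, the called genes were 1 for nuclear dark minus light (6 in all libraries), 1 for nuclear rhythm (6), 1 for polysomal dark minus light (5), 1 for polysomal rhythm (6), and 2 each (4) for the differences of Bmal1-/- from WT in dark minus light and in rhythm. With replicates 4 to 6 only, polysomal dark minus light gave 1 and polysomal rhythm 2. With genes down to a mean of 1 count, polysomal dark minus light gave 3. Leaving out each replicate in turn gave 3 to 3 for polysomal dark minus light, 3 to 5 for polysomal rhythm and 3 to 5 for sites that differ between Bmal1-/- and WT (5). Of 2735 single values, 2477 kept direction and call, 25 gained and 111 lost the call, 121 uncalled values changed direction or had no adjusted p, and 1 value reversed. That was the polysomal minus total usage of the Dnaja1 site at chr4:40733056-40733111, which was 0.09 in all libraries and -0.44 (adjusted p = 0.0152) in replicates 4 to 6; the cause was not tested. Counts over all genes moved more. Over the alternatives, rhythm calls ran from 622 to 3039 in WT total (2260 as reported), 174 to 996 in nuclear (669), 115 to 1506 in polysomal (845) and 0 to 10 in Bmal1-/- RNA (1). Dark minus light calls ran from 403 to 1593 (1104), 20 to 498 (289), 50 to 973 (437) and stayed at 0. Differences of Bmal1-/- from WT ran from 200 to 752 for rhythm (617) and 36 to 381 for dark minus light (279), a different rhythm in polysomal RNA from 0 to 54 (0), and rhythmic site usage from 3 to 99 sites (46). Sites that differ in usage fell to 3748 for nuclei (9302) and 3837 for polysomes (8834) with genes averaging 200 site counts or more, and ran from 674 to 1650 for Bmal1-/- mice (1208).

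Groups share replicate numbers, and the labels do not say what a number means. Deviations of same-numbered nuclear and total libraries had a mean correlation of 0.276 (34 of 36 above 0.1, 28 of 36 highest with their own number), a hint of pairs that not every library bears out. For polysomal and total libraries it was -0.101 (0 of 36 above 0.1), and for Bmal1-/- and WT 0.059 (14 of 36). The tests reported take no numbers as pairs. With the block the errors of the nuclear minus total differences were mostly smaller (Hsph1 -0.12 ± 0.15 against -0.08 ± 0.22), and 0 of the 9 genes passed. Among libraries of different times within a series the mean was 0.181 to 0.235. With the replicate block, 3039 genes had a rhythm in WT total RNA, and Hspd1 was among them and differed between dark and light (0.20 ± 0.07, adjusted p = 0.0412). The block also added the polysomal level call of Hspa1b and the call of 1 Hsp90aa1 site in Bmal1-/- mice, and changed no other call of the 10 genes.

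Depth limits Hspa1a, at 2.86 to 6.58 counts per library on average.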

Other observations

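Hspb1, a small heat shock protein that holds unfolding proteins and was not among the 10 genes, was far lower in level in Bmal1-/- mice. Its time-point means lay between 6.35 and 23.8 CPM in WT total RNA and between 0.753 and 1.80 CPM in Bmal1-/- total RNA (log2 difference -3.33 ± 0.21, adjusted p = 1.56e-21 by edgeR). Dnaja4, an HSP40, was higher in Bmal1-/- mice by 1.49. Of the 34 cytosolic chaperones 11 were lower and 6 higher in Bmal1-/- than in WT total RNA, where 44.2% of all genes differed.

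Clpx, which unfolds substrates of a mitochondrial protease, was the only one of the 10 mitochondrial genes with a called rhythm in WT total RNA, with a ratio of 4.11 and a fitted peak at 23.3 h, later than those of the 7 heat shock genes with a called rhythm. In nuclei it was higher in the dark by 0.95. Cirbp, whose level over the day was higher in Bmal1-/- mice by 0.57, had a wide spread there at ZT18, with 9.51, 14.4 and 77.5 CPM (lowest, median and highest of 6 libraries).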
